A study of Rattus norvegicus with 12 samples.

Results

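The MAP kinase phosphatases are the dual-specificity phosphatases that act on MAP kinases. They were taken as the loci whose gene symbol was Dusp1, Dusp2, Dusp4, Dusp5, Dusp6, Dusp7, Dusp8, Dusp10 or Dusp16, which gave 9 of the 34599 loci in the deposited count table. All 9 were among the 15101 genes that passed the filter on low counts. RNA-seq had been performed on left ventricular tissue of male SD rats obtained at 6 weeks of age, harvested 1 day after surgery, with 4 rats in each of 3 groups. Sham rats underwent thoracotomy without ligation. In MI rats the left anterior descending coronary artery was ligated and nothing was implanted. In iCarP+/Light+ rats the artery was ligated, the green alga Chlorella was injected into the infarct 10 min later, a light-emitting photonic patch was attached to the epicardium with the CCS@gel adhesive, and light was given for 3 h at 55 mW. The injection itself, alga, patch, adhesive and illumination therefore all separate iCarP+/Light+ from MI rats and cannot be told apart here. Unilluminated iCarP+/Light- rats were not analysed here. The labels and methods do not say how much border zone or remote myocardium each piece of tissue held.

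MAP kinases (ERK, JNK and p38) are switched on by phosphorylation of a threonine and a tyrosine in their activation loop, and MAP kinase phosphatases switch them off by removing both phosphates. Several of the phosphatase genes are themselves transcribed in response to MAP kinase signaling, so that they act as negative feedback. By location and substrate they fall into inducible nuclear enzymes (Dusp1, Dusp2, Dusp4 and Dusp5), cytoplasmic ERK-selective enzymes (Dusp6 and Dusp7) and enzymes that act mainly on JNK and p38 (Dusp8, Dusp10 and Dusp16). In the heart, ERK, JNK and p38 are activated by ischemia, stretch and inflammatory cytokines.

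The upstream sequences of Dusp1, Dusp2, Dusp5 and Dusp16 are shown because these 4 genes were higher in iCarP+/Light+ rats than in MI rats. Each is the 250 bases before the gene start in RefSeq on the build GRCr8, written 5′ to 3′ on the strand of the gene, at chr10:17184603-17184852 on the plus strand for Dusp1, chr3:135009386-135009635 on the plus strand for Dusp2, chr1:262543524-262543773 on the plus strand for Dusp5 and chr4:169361509-169361758 on the minus strand for Dusp16. Capitals mark every match on either strand to 6 motifs: the cAMP response element (CRE) TGACGTCA, its half-site TGACG, the AP-1 site TGANTCA, the E-box CACGTG, the CArG box and the NF-kB consensus. Every CRE also contains the half-site.
Dusp1: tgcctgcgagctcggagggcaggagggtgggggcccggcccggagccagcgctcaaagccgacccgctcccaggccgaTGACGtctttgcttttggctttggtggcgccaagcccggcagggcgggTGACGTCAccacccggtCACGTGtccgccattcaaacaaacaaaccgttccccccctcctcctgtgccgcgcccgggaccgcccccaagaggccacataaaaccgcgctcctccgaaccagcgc
Dusp2: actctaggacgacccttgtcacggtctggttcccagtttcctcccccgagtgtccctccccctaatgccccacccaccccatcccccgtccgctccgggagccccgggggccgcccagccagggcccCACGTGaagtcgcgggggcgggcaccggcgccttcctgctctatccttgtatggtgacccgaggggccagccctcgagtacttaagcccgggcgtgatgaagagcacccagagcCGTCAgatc
Dusp5: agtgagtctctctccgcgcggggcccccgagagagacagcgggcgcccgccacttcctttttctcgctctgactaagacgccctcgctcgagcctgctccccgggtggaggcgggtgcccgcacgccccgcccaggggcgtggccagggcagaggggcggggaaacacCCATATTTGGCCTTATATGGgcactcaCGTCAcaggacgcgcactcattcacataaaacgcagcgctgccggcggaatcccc
Dusp16: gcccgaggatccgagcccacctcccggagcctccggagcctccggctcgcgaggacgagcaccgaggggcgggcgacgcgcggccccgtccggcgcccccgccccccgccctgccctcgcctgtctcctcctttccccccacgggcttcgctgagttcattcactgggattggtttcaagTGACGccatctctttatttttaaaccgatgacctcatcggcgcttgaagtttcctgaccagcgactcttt

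Each of the 4 windows held a CRE half-site, a sequence present in 19.0% of the 27457 RefSeq promoters of the same length. Dusp1 had a complete CRE, which 1.7% of promoters held, starting 124 bases before the gene start, another half-site at 172 bases and an E-box at 107 bases. Dusp2 had an E-box at 123 bases and a half-site at 9 bases. E-boxes were in 5.79% of promoters. Dusp5 had a pair of CArG boxes, the binding sequence of serum response factor, at 82 and 72 bases and a half-site at 55 bases, whereas 1.5% of promoters held at least 1 CArG box. Dusp16 had a half-site alone, at 70 bases. No AP-1 site (6.36% of promoters) and no NF-kB consensus (3.52%) was in these windows. Windows were found for 8 of the 9 genes, all but Dusp4. Those of Dusp6, Dusp7, Dusp8 and Dusp10 held none of the 6 motifs, and those of Dusp6, Dusp8 and Dusp10 do not end at the RefSeq gene start. A match to these letters is a description of the sequence and not evidence that a factor bound there.

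Libraries held 14064414 to 17136958 counts, and the level that 3 counts represent was 0.175 to 0.213 CPM on these totals, without TMM. All other CPM are counts divided by a library size scaled by TMM, a normalization that assumes that most genes do not differ. The TMM factors were 0.784 to 0.856 in Sham rats and 1.15 to 1.26 in MI rats. On the TMM scale, 3 counts are therefore a higher level in Sham rats and a lower level in MI rats than on the totals. Genes are compared with each other as FPKM, which also divides by gene length. Counts of the 9 genes in single libraries ran from 35 for Dusp2 to 6819 for Dusp1. Mitochondrial genes took 22.8% to 28.9% of the counts in Sham rats, 8.52% to 11.5% in MI rats and 7.14% to 14.2% in iCarP+/Light+ rats. Summed cardiomyocyte markers were 37340 to 42008 CPM for Sham, 2195 to 4259 CPM for MI and 1608 to 5171 CPM for iCarP+/Light+ rats, with 7 of 7 tested markers lower in MI than in Sham rats.

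The 3 comparisons were made with edgeR's quasi-likelihood test and Benjamini-Hochberg adjustment over all 15101 genes. They share groups, so their values for a gene are not independent of each other. One day after ligation, Dusp2, Dusp5 and Dusp6 were higher and Dusp1 and Dusp8 lower in MI than in Sham rats. The 5 of 9 genes called are 55.6%, beside 63.8% of all genes called, so the share of the family was close to the background. For the 3 higher genes the background was 30.2% called higher, and for the 2 lower genes 33.6% called lower. None of the ranges of these 5 genes overlapped between MI and Sham rats, as was the case for 59.0% of all genes, 27.6% with MI rats above and 31.4% with MI rats below. Of all genes called, 47.3% were higher in MI rats, and 73.5% with total counts in place of TMM. With total counts 5 of the 9 genes were again called, all higher, and they were Dusp2, Dusp5, Dusp6, Dusp7 and Dusp10, while Dusp1 and Dusp8 no longer passed. Under that scaling 69.4% of all genes were called and 51.0% were called higher, so this share too was close to the background. The median log2 fold change was −0.16 over the 9 genes and −0.06 over all genes. In bulk tissue, fewer cells of a type and less RNA per cell cannot be told apart.

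In iCarP+/Light+ rats, Dusp1, Dusp2, Dusp5 and Dusp16 were higher than in MI rats, by 2.43-fold to 7.65-fold. These 4 of 9 genes are 44.4%, beside 11.6% of all genes called higher and 13.6% called in either direction, and 2.01% were called lower. The same 4 were the ones at an unadjusted p below 0.05, beside 25.6% of all genes. DESeq2 and limma-voom also called 4 of the 9, beside 17.3% and 14.3% of all genes. Each of the 4 had its lowest iCarP+/Light+ rat above the highest MI rat, as did 12.1% of all genes, while 4.37% lay wholly below the MI rats and 16.4% did not overlap in either direction. Of all genes called, 85.2% were higher in iCarP+/Light+ rats, and 70.8% with DESeq2. With total counts in place of TMM the median of all genes moved from 0.01 to −0.25 and 30.7% of called genes, or 7.97% of all genes, were called higher, and each of the 4 genes was still called higher, at log2 fold changes of 2.03 for Dusp1, 1.01 for Dusp2, 1.04 for Dusp5 and 2.64 for Dusp16. The other 5 genes did not pass the threshold under TMM. The median log2 fold change was 0.30 for the 9 genes and 0.01 for all genes.

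Against Sham rats, 6 of the 9 genes differed in iCarP+/Light+ rats, or 66.7% beside 66.5% of all genes. Dusp1, Dusp2, Dusp5, Dusp6 and Dusp16 were higher, with 33.5% of all genes called higher, and Dusp8 was lower, with 33.0% called lower. Of all genes called, 50.3% were higher in iCarP+/Light+ rats, and 64.7% with total counts. Groups did not overlap for the 5 higher genes, as for 31.9% of all genes in that direction and 63.5% in either, and overlapped for Dusp8. Of these 6, Dusp1 lay lower in MI than in Sham rats but higher in iCarP+/Light+ rats than in either, and Dusp16 was called in both comparisons with iCarP+/Light+ rats and not between MI and Sham rats.

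**Figure D1:**
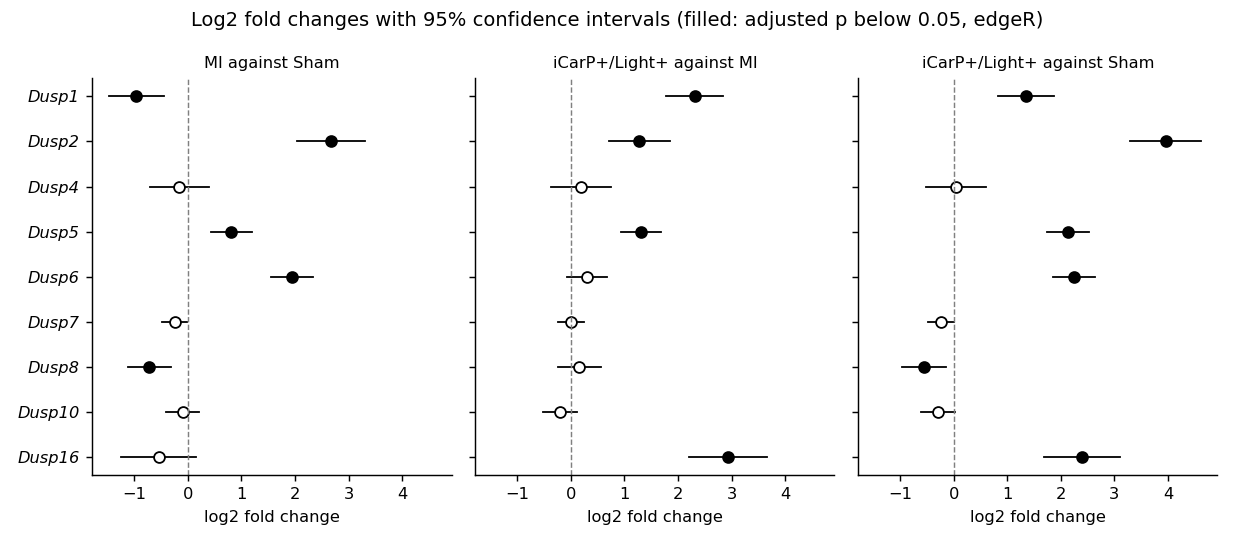
Log2 fold change (x axis) of each phosphatase gene (y axis) in the 3 comparisons, with bars for the 95% confidence interval and filled points for an adjusted p below 0.05. In the comparison of iCarP+/Light+ with MI rats the filled points are Dusp1, Dusp2, Dusp5 and Dusp16, all to the right of 0.

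Dusp1, also known as MKP-1, is an immediate-early gene whose nuclear product acts on p38 and JNK as well as ERK and restrains cytokine production. It is annotated on the plus strand of chr10:16970626-16973418 of the build rn6 (ENSRNOG00000003977). Sham rats 1, 2, 3 and 5 had 213, 149, 122 and 132 CPM. MI rats 1, 3, 4 and 5 had 58.7, 102, 69.1 and 86.8 CPM, and iCarP+/Light+ rats 1, 2, 4 and 5 had 248, 399, 444 and 479.6 CPM. The 3 groups did not overlap, MI rats being the lowest and iCarP+/Light+ rats the highest. Dusp1 was 1.94-fold lower in MI than in Sham rats, a log2 fold change of −0.96 (SE 0.238, adjusted p = 0.00329 by edgeR). It was 4.96-fold higher in iCarP+/Light+ rats than in MI rats, a log2 fold change of 2.31 (SE 0.247, adjusted p = 4.89e-05 by edgeR), and 2.55-fold higher than in Sham rats (adjusted p = 2.52e-04 by edgeR). With total counts in place of TMM the median of all genes moved to 0.52 between MI and Sham rats, and Dusp1 no longer passed, at a log2 fold change of −0.38 (adjusted p = 0.168 by edgeR), which is −0.90 relative to that median.

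Dusp2, or PAC-1, is an inducible nuclear phosphatase best known from activated leukocytes. It lies on the plus strand of chr3:119776925-119779099 (ENSRNOG00000013862). Levels were 4.34, 4.30, 2.66 and 3.54 CPM for Sham, 20.8, 28.2, 29.6 and 16.4 CPM for MI and 32.6, 58.3, 55.3 and 84.9 CPM for iCarP+/Light+ rats, each in the rat order given for Dusp1. The groups were ordered without overlap, with Sham lowest and iCarP+/Light+ highest. The increase over Sham was 6.39-fold in MI rats (log2 2.68, SE 0.296, adjusted p = 5.20e-06 by edgeR) and 15.5-fold in iCarP+/Light+ rats (log2 3.96, SE 0.306, adjusted p = 2.09e-07 by edgeR). From MI to iCarP+/Light+ rats Dusp2 rose 2.43-fold (log2 1.28, SE 0.265, adjusted p = 0.00542 by edgeR), and iCarP+/Light+ rat 1 was closest to the MI rats.

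Dusp5 is a nuclear phosphatase selective for ERK. It lies on the plus strand of chr1:274245184-274258595 (ENSRNOG00000014061). Sham rats had 17.7, 14.5, 14.3 and 12.3 CPM, MI rats 23.0, 31.8, 23.5 and 25.1 CPM, and iCarP+/Light+ rats 49.1, 68.5, 56.8 and 83.3 CPM. Dusp5 thus had the same order of groups as Dusp2, again without overlap, over a narrower span. It was 1.76-fold higher in MI than in Sham rats (log2 0.81, SE 0.175, adjusted p = 0.00123 by edgeR). It was 2.49-fold higher in iCarP+/Light+ rats than in MI rats (log2 1.32, SE 0.173, adjusted p = 2.15e-04 by edgeR) and 4.38-fold higher than in Sham rats (adjusted p = 4.02e-07 by edgeR).

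Dusp4 (MKP-2), the remaining inducible nuclear member, did not pass the threshold in any comparison. It lies on the minus strand of chr16:61078175-61091169 (ENSRNOG00000011921). Sham rats had 7.30, 7.65, 7.44 and 9.73 CPM, MI rats 4.02, 10.1, 5.48 and 9.26 CPM, and iCarP+/Light+ rats 8.58, 7.74, 7.25 and 9.42 CPM, so that the 3 groups overlapped and MI rats were the most scattered. The 95% interval of the log2 fold change was −0.71 to 0.40 for MI against Sham rats (adjusted p = 0.616 by edgeR) and −0.36 to 0.75 for iCarP+/Light+ against MI rats (adjusted p = 0.699 by edgeR).

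**Figure D2:**
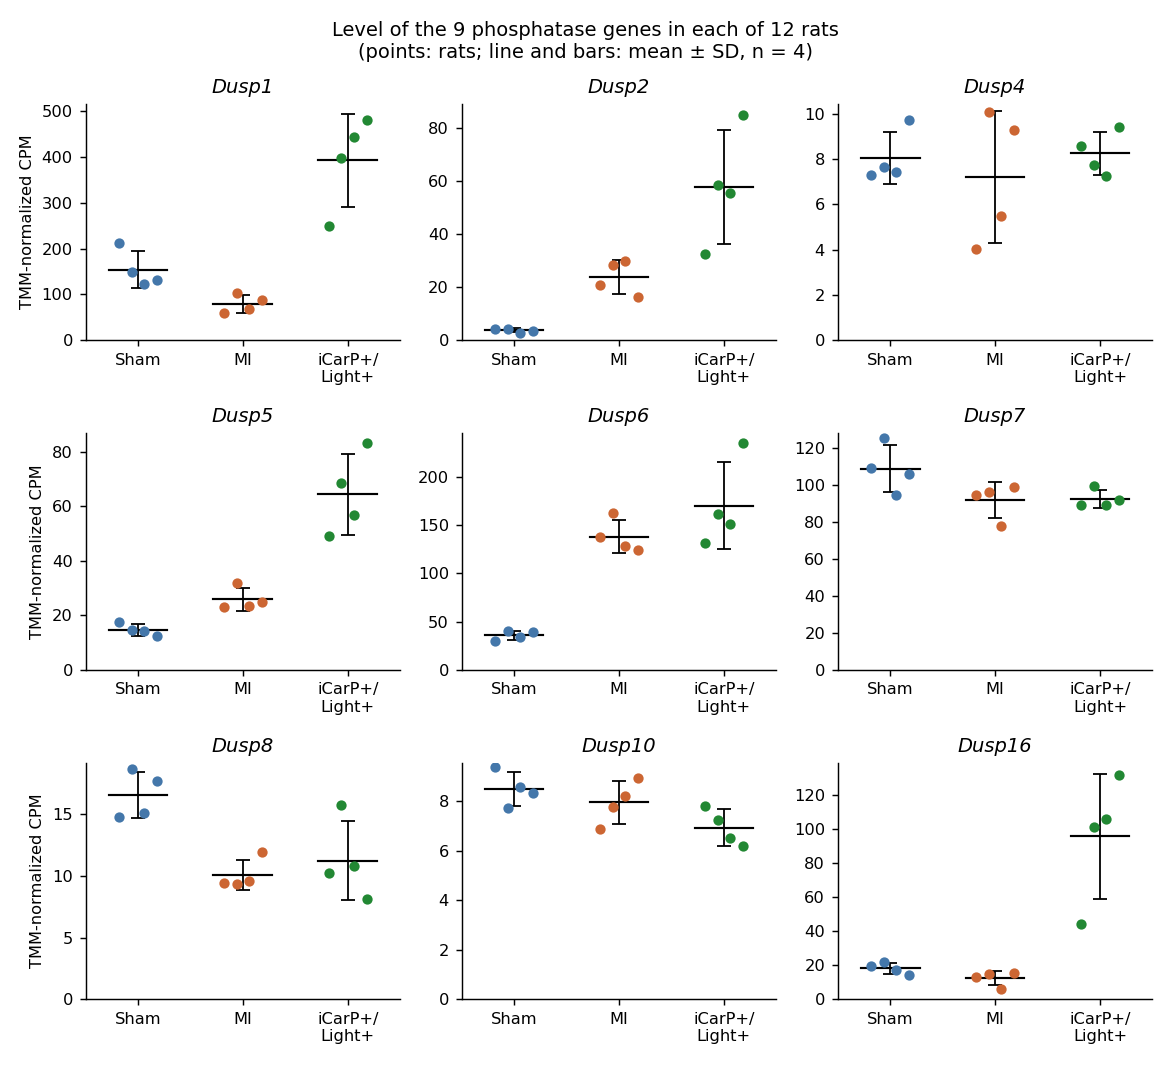
TMM-normalized CPM (y axis) of each phosphatase gene in the 4 rats of each group (x axis); points are rats, and the line and bars give the mean ± SD. Dusp1, Dusp2, Dusp5 and Dusp16 are highest in iCarP+/Light+ rats without overlap, Dusp6 is high in both ligated groups, and Dusp4, Dusp7 and Dusp10 overlap throughout.

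Among the cytoplasmic ERK phosphatases, Dusp6 (MKP-3) was high in both ligated groups. It lies on the plus strand of chr7:41475163-41479392 (ENSRNOG00000023896) and is a feedback target of ERK signaling. Sham rats had 29.6, 40.1, 33.7 and 39.4 CPM, MI rats 137, 162, 128 and 124 CPM, and iCarP+/Light+ rats 131, 162, 151 and 235 CPM. Every ligated rat was above every Sham rat, and the ligated groups overlapped each other. Dusp6 was 3.86-fold higher in MI than in Sham rats (log2 1.95, SE 0.179, adjusted p = 1.15e-06 by edgeR) and 4.75-fold higher in iCarP+/Light+ than in Sham rats (adjusted p = 2.83e-07 by edgeR). Between iCarP+/Light+ and MI rats the ratio was 1.23 (log2 0.30, 95% interval −0.07 to 0.67, adjusted p = 0.305 by edgeR). Without iCarP+/Light+ rat 5 the log2 value was 0.03.

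Dusp7, a close relative of Dusp6 with the same preference for ERK, lies on the plus strand of chr8:115069095-115076130 (ENSRNOG00000010789). Its values were 109, 126, 94.5 and 106 CPM for Sham, 94.6, 96.2, 77.5 and 98.8 CPM for MI and 89.2, 99.5, 89.2 and 91.9 CPM for iCarP+/Light+ rats. The groups overlapped, and no comparison passed the threshold. The log2 fold change was −0.25 for MI against Sham rats (adjusted p = 0.0689 by edgeR) and 0.01 for iCarP+/Light+ against MI rats (95% interval −0.23 to 0.25). Without Sham rat 3 the difference of MI from Sham rats passed, at −0.30 (adjusted p = 0.0362 by edgeR), and so did that of iCarP+/Light+ from Sham rats, at −0.30 (adjusted p = 0.0391 by edgeR). The latter also passed without MI rat 4, at −0.23 (adjusted p = 0.0487 by edgeR).

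Among the JNK and p38 phosphatases, Dusp16 (MKP-7), which acts mainly on JNK, had the largest ratio of iCarP+/Light+ to MI rats of the 9 genes. It lies on the minus strand of chr4:168472412-168517177 (ENSRNOG00000006628). Sham rats had 19.7, 21.8, 17.4 and 14.2 CPM, MI rats 13.4, 15.1, 6.26 and 15.3 CPM, and iCarP+/Light+ rats 44.5, 101, 106 and 132 CPM. Sham and MI rats overlapped, and every iCarP+/Light+ rat exceeded all of them, with rat 1 well below the other 3. Dusp16 was 7.65-fold higher in iCarP+/Light+ rats than in MI rats (log2 2.94, SE 0.333, adjusted p = 7.14e-05 by edgeR) and 5.24-fold higher than in Sham rats (log2 2.39, SE 0.326, adjusted p = 2.74e-05 by edgeR). The difference of MI from Sham rats was −0.55 on the log2 scale (SE 0.321, adjusted p = 0.153 by edgeR).

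Dusp8, a phosphatase of JNK and p38 expressed in heart and brain, lies on the minus strand of chr1:215030429-215033460 (ENSRNOG00000029394). Sham rats had 14.8, 18.6, 15.1 and 17.7 CPM, MI rats 9.43, 9.39, 9.57 and 11.9 CPM, and iCarP+/Light+ rats 10.3, 15.7, 10.8 and 8.16 CPM. All MI rats were below all Sham rats, whereas iCarP+/Light+ rat 2 reached into the Sham range. Dusp8 was 1.64-fold lower in MI than in Sham rats (log2 −0.72, SE 0.187, adjusted p = 0.00455 by edgeR). With total counts in place of TMM this was −0.14 (adjusted p = 0.552 by edgeR), or −0.66 once the all-gene median was subtracted. The log2 fold change was −0.56 in iCarP+/Light+ against Sham rats (SE 0.187, adjusted p = 0.0183 by edgeR). This call was lost without Sham rat 2 (−0.50, adjusted p = 0.0520 by edgeR), without iCarP+/Light+ rat 5 (−0.41, adjusted p = 0.0639 by edgeR) and with total counts (−0.25, adjusted p = 0.285 by edgeR). Between iCarP+/Light+ and MI rats the 95% interval was −0.25 to 0.57 on the log2 scale (adjusted p = 0.656 by edgeR).

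Dusp10 (MKP-5), which acts on JNK and p38, lies on the plus strand of chr13:104284660-104321455 (ENSRNOG00000004003). It had 9.40, 7.71, 8.58 and 8.33 CPM for Sham, 6.89, 7.77, 8.22 and 8.94 CPM for MI and 7.83, 7.25, 6.50 and 6.19 CPM for iCarP+/Light+ rats. These ranges overlapped, and the log2 fold changes were −0.10 (MI against Sham, adjusted p = 0.582), −0.20 (iCarP+/Light+ against MI, adjusted p = 0.455) and −0.29 (iCarP+/Light+ against Sham, adjusted p = 0.0962) by edgeR.

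Per length, the sum of the 9 genes was highest in iCarP+/Light+ rats, with Dusp1 its largest part. The summed FPKM of the 9 genes was 133 to 187 for Sham, 147 to 189.5 for MI and 274 to 513 for iCarP+/Light+ rats, among which rat 1 had the lowest and rat 5 the highest sum. Its make-up also differed between groups. Dusp1 was 50.1% ± 5.84 of the sum for Sham, 25.2% ± 3.47 for MI and 49.7% ± 3.09 for iCarP+/Light+ rats (SD, n = 4). Dusp6 was 8.44% ± 1.84, 31.2% ± 2.36 and 15.3% ± 2.09 in the same groups, and Dusp7 was 22.4% ± 2.55, 18.4% ± 2.13 and 7.63% ± 2.02. The Dusp7 share was thus lowest in iCarP+/Light+ rats, although its own FPKM averaged 29.4 in MI and 29.6 in iCarP+/Light+ rats. Dusp2 was 1.45% ± 0.163 of the sum for Sham, 9.17% ± 2.52 for MI and 8.54% ± 1.22 for iCarP+/Light+ rats.

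**Figure D3:**
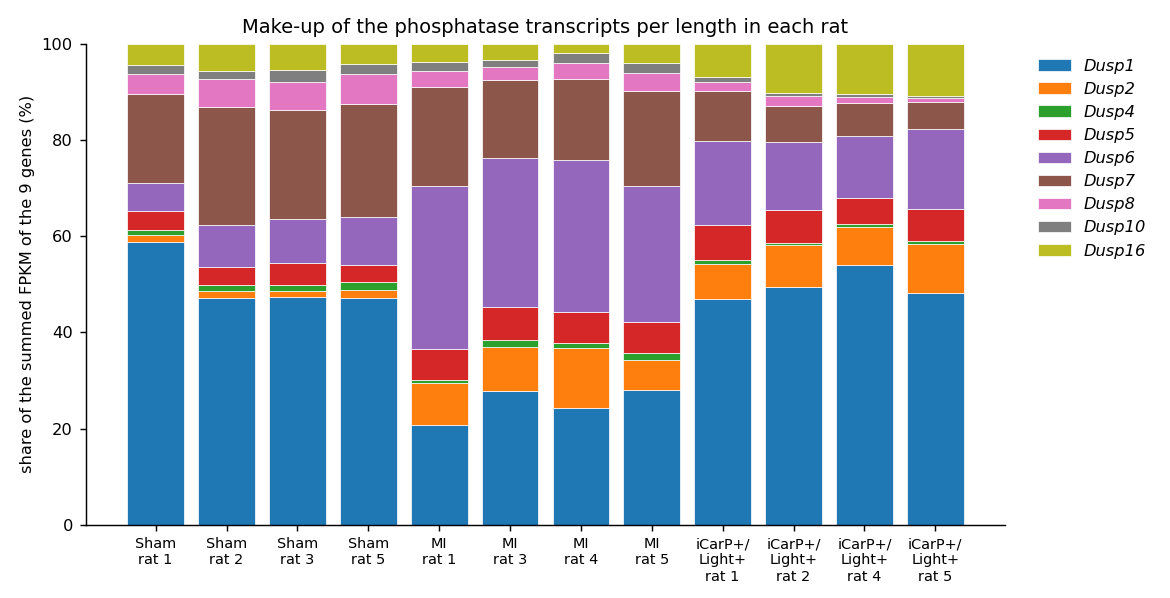
Share of the summed FPKM of the 9 genes (y axis, percent) taken by each gene in each of the 12 rats (x axis), as stacked bars. Dusp1 takes 47.1% to 58.9% in Sham rats, 20.7% to 28.0% in MI rats and 46.9% to 54.0% in iCarP+/Light+ rats, and Dusp6 takes 28.2% to 33.9% in MI rats.

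In Sham rats Dusp1 led with 79.5 ± 21.1 FPKM, followed by Dusp7 with 34.8 ± 4.10 and Dusp6 with 13.0 ± 1.80 FPKM (SD, n = 4), and these 3 did not overlap each other. Dusp8, Dusp16 and Dusp5 followed, of which neighbors in this order overlapped and Dusp8 and Dusp5 did not, then Dusp10, and last Dusp2 and Dusp4, which overlapped. In MI rats Dusp6 with 50.0 ± 6.17, Dusp1 with 40.9 ± 9.94 and Dusp7 with 29.4 ± 3.09 FPKM were the highest, and neighbors in this order overlapped. Dusp2 and Dusp5 came next, at 14.7 ± 3.84 and 10.7 ± 1.69 FPKM, again overlapping, and Dusp4 was lowest at 1.81 ± 0.735 FPKM. In iCarP+/Light+ rats Dusp1 stood alone at 203 ± 52.5 FPKM. Below it, Dusp6 (61.6 ± 16.4), Dusp16 (40.3 ± 15.4), Dusp2 (35.6 ± 13.2), Dusp7 (29.6 ± 1.56) and Dusp5 (26.6 ± 6.16 FPKM) each overlapped the next in this order.

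Neutrophil markers were also highest in iCarP+/Light+ rats. The summed CPM of 6 neutrophil markers was 6.36 to 11.2 for Sham, 324 to 627 for MI and 2184 to 6594 for iCarP+/Light+ rats. All 6 were called higher in MI than in Sham rats and higher in iCarP+/Light+ rats than in MI rats, and no defining marker was at 0 in every rat of a group. Among iCarP+/Light+ rats, rat 1 had the lowest and rat 5 the highest marker sum, and the same rats had the lowest and highest levels of Dusp1, Dusp2, Dusp5, Dusp6 and Dusp16. Dusp10 ran the other way, with rat 1 highest at 7.83 CPM and rat 5 lowest at 6.19 CPM. Dusp8 was also lowest in rat 5, at 8.16 CPM. Dusp4 was lowest in rat 4, and Dusp7 was highest in rat 2. In the same group the cardiomyocyte sum was highest in rat 1, at 5171 CPM, and lowest in rat 5, at 1608 CPM. Among MI rats the order differed by gene: rat 3 had the lowest neutrophil sum, 324 CPM, and the highest Dusp1, Dusp5 and Dusp6, and rat 4 had the highest sum, 627 CPM, with the lowest Dusp16 and the highest Dusp2. Macrophage markers summed to 259 to 383 CPM for Sham, 685 to 1386 CPM for MI and 512 to 753 CPM for iCarP+/Light+ rats, with 1 of 6 higher and 2 of 6 lower in iCarP+/Light+ rats than in MI rats. Endothelial markers summed to 1296 to 1396, 497 to 803 and 670 to 797 CPM in the same order, fibroblast markers to 3565 to 3979, 1248 to 1641 and 904 to 1746 CPM, and mural cell markers to 670 to 753, 298 to 526 and 231 to 367 CPM. T cell markers summed to 9.03 to 13.1, 21.7 to 41.7 and 14.3 to 27.4 CPM, B cell markers to 2.02 to 3.91, 1.12 to 3.94 and 3.13 to 6.53 CPM, and red blood cell markers to 1891 to 3150, 506 to 2139 and 1837 to 5215 CPM. The part of cell composition in the phosphatase differences was not tested.

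**Figure D4:**
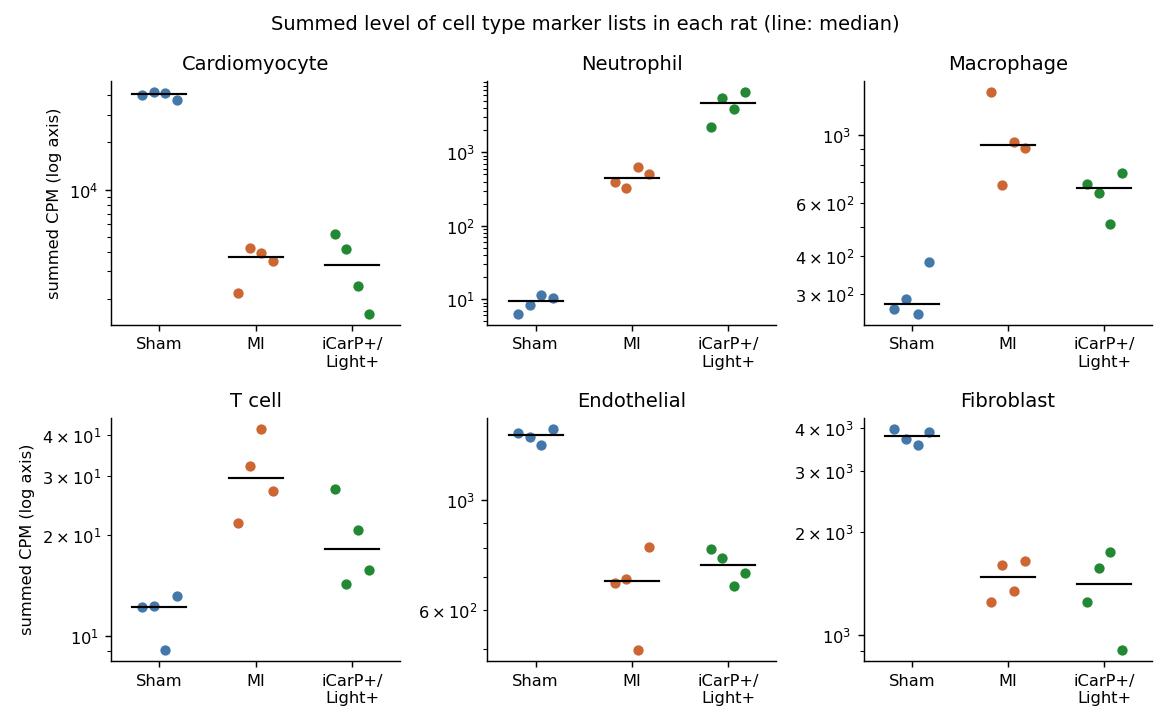
Summed CPM of the marker genes of 6 cell types (y axis, log scale) in each rat (points), by group (x axis), with a line at the median. The neutrophil sum is 6.36 to 11.2 for Sham, 324 to 627 for MI and 2184 to 6594 for iCarP+/Light+ rats, without overlap.

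Of 18 other dual-specificity phosphatases listed, 13 were tested. In this and the following lists, the extremes named are those among called genes with a mean of at least 5 CPM. Of all genes, 30.2% were called higher and 33.6% lower in MI against Sham rats, and 11.6% and 2.01% in iCarP+/Light+ against MI rats. Of the 13 tested here, 2 were higher and 5 lower in MI against Sham rats. In iCarP+/Light+ against MI rats 1 was higher, Dusp18, at 21.1 CPM for Sham, 30.0 for MI and 52.1 for iCarP+/Light+ rats (log2 0.80 against MI, adjusted p = 0.00311 by edgeR). DESeq2 called 4 of the 13 in that comparison and limma-voom 1, beside 17.3% and 14.3% of all genes. At an unadjusted p below 0.05 by edgeR there were 4, beside 25.6% of all genes. Dusp28 fell in MI rats, from 14.4 to 2.23 CPM (log2 −2.69, adjusted p = 2.00e-06 by edgeR). Dusp9, a cytoplasmic ERK phosphatase and the remaining classical member, had 1, 0, 0 and 0 counts for Sham, 23, 42, 36 and 22 for MI and 29, 32, 21 and 28 for iCarP+/Light+ rats, and was called higher in MI than in Sham rats; no fold is given because Sham rats were at the limit of counting. Of 8 other phosphatases that act on MAP kinases, 2 were higher and 4 lower in MI than in Sham rats, with 1 higher and 1 lower in iCarP+/Light+ rats than in MI rats. The higher one was Ppm1a (log2 0.40, adjusted p = 0.0123 by edgeR), a serine and threonine phosphatase, and the lower one was Ptpn7 (−0.59, adjusted p = 0.0470 by edgeR), a leukocyte tyrosine phosphatase that had risen from 7.91 CPM in Sham to 41.0 CPM in MI rats. Ptprr, a receptor-type phosphatase of ERK, had the largest fall of the 8 in MI rats, with a log2 fold change of −2.30.

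Of 9 MAP kinases tested, the substrates of the phosphatases, 2 were higher and 4 lower in MI than in Sham rats. Of all genes, 30.2% were called higher and 33.6% lower. Log2 fold changes of the called kinases ran from −0.82 for Mapk9 (JNK2) to 4.14 for Mapk13 (p38δ). Mapk13 had 0.217 to 0.614 CPM in Sham rats, near the limit of counting, and 5.43 to 10.5 CPM in MI rats. In iCarP+/Light+ against MI rats 0 of 9 were called by edgeR, DESeq2 or limma-voom, beside 13.6%, 17.3% and 14.3% of all genes. At an unadjusted p below 0.05 there was 1, beside 25.6% of all genes. With 9 genes, these counts do not set the kinases apart from the background. Mapk3 (ERK1) had log2 fold changes of −0.32 for MI against Sham rats (adjusted p = 0.0121 by edgeR) and 0.24 for iCarP+/Light+ against MI rats (adjusted p = 0.138 by edgeR). In the same order, Mapk8 (JNK1) had 0.19 and 0.19 and Mapk14 (p38α) 0.09 and 0.20, none of which passed (adjusted p = 0.378, 0.569, 0.472 and 0.262 by edgeR). Transcript levels do not show how far these kinases were phosphorylated.

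Of the 7 MAP2K genes, which phosphorylate the MAP kinases, 1 (Map2k1, log2 0.90) was higher and 4 lower in MI than in Sham rats, with Map2k6, an activator of p38, lowest at −1.85. For the counts of this paragraph, the all-gene shares were 30.2% higher and 33.6% lower in MI against Sham rats. They were 11.6% and 2.01% in iCarP+/Light+ against MI rats. Map2k1 was also the 1 called in iCarP+/Light+ against MI rats, at 80.8 CPM for Sham, 151 for MI and 250.5 for iCarP+/Light+ rats (log2 0.73, adjusted p = 0.0115 by edgeR). Of the 15 MAP3K and Raf genes, 3 were higher and 3 lower in MI than in Sham rats, between −1.14 for Araf and 1.97 for Map3k6 on the log2 scale. Another 4 calls, all higher, were made in iCarP+/Light+ against MI rats, among them Map3k2, Map3k8 and Braf. Map3k8 (Tpl2), which activates ERK downstream of inflammatory receptors, averaged 9.95 CPM for Sham, 14.1 for MI and 172 for iCarP+/Light+ rats, a 12.2-fold difference from MI rats (log2 3.61, adjusted p = 3.49e-06 by edgeR). It exceeded the ratio of every one of the 9 phosphatases in that comparison.

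Of 9 other feedback inhibitors of ERK signaling tested, 4 were higher and 3 lower in MI than in Sham rats, between −1.36 for Lrig1 and 4.61 for Spred3 on the log2 scale. For both lists of this paragraph, the all-gene shares were 30.2% higher and 33.6% lower in MI against Sham rats. They were 11.6% and 2.01% in iCarP+/Light+ against MI rats. Spry2, Rasa2 (log2 0.84, adjusted p = 0.00465 by edgeR) and Errfi1 were higher in iCarP+/Light+ rats than in MI rats. Spry2 had a log2 fold change of 0.41 in the latter comparison (adjusted p = 0.0321 by edgeR) and Spry4 also 0.41, which did not pass (adjusted p = 0.333 by edgeR). Of 10 MAP kinase-activated kinases, 4 were higher and 4 lower in MI than in Sham rats, between −1.69 for Rps6ka5 and 2.37 for Rps6ka1 on the log2 scale. Rps6ka5, Mapkapk2 and Mknk1 were higher in iCarP+/Light+ rats than in MI rats. Mapkapk2, the kinase downstream of p38, was 572 CPM for Sham, 292 for MI and 543 for iCarP+/Light+ rats (log2 0.89 against MI, adjusted p = 6.15e-04 by edgeR).

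Of 18 transcription factors that respond to MAP kinase signaling, 11 were higher and 2 lower in MI than in Sham rats. Of all genes, 30.2% were called higher and 33.6% lower. The median log2 fold change of the 18 was 1.45, beside −0.06 over all genes, with values from −1.62 for Elk1 to 4.10 for Egr2. Fos averaged 3.26 CPM for Sham, 36.2 for MI and 31.8 for iCarP+/Light+ rats (log2 3.46 for MI against Sham, adjusted p = 7.07e-06 by edgeR). Like Dusp6, it was high in both ligated groups, and the iCarP+/Light+ value was −0.19 against MI rats (adjusted p = 0.787 by edgeR). Fosl1, Fosl2, Junb and Egr1 were higher and Etv1 (log2 −0.89, adjusted p = 0.0470 by edgeR) lower in iCarP+/Light+ rats than in MI rats. There, 11.6% of all genes were called higher and 2.01% lower. Junb averaged 43.3, 211 and 1128 CPM in the 3 groups, Fosl2 5.71, 16.6 and 101 CPM, and Egr1 22.2, 56.9 and 142 CPM, so that these genes rose in both steps as Dusp2 and Dusp5 did.

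**Figure D5:**
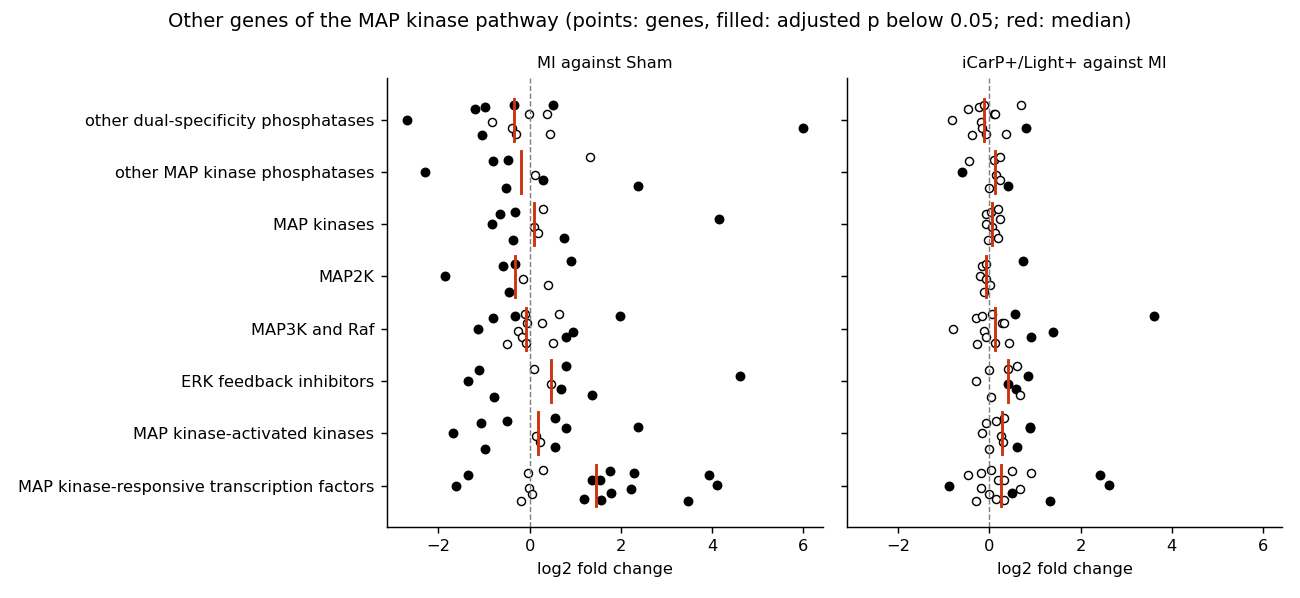
Log2 fold change (x axis) of every tested gene of the MAP kinase pathway lists (y axis), for MI against Sham rats and for iCarP+/Light+ against MI rats; filled points have an adjusted p below 0.05 and the red line is the median. MAP kinase-responsive transcription factors have 11 of 18 genes higher in MI than in Sham rats, beside 30.2% of all genes. No MAP kinase has a filled point in iCarP+/Light+ against MI rats, where 13.6% of all genes were called.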

How the data were processed

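Total RNA of 12 rats was sequenced from NEBNext Ultra libraries. The deposited values are whole-number counts of reads assigned to each gene, listed by the authors beside its symbol, identifier, position and length. The submitters' processing notes name HISAT2, featureCounts and rn6, while their versions and the strand setting are not given in the sources used here. Genes with 10 or more counts in enough libraries were kept by filterByExpr, and counts were scaled by TMM and fitted with edgeR 4.0.16 in R 4.3.3 (quasi-likelihood, 1 mean per group, all 12 rats, Benjamini-Hochberg threshold 0.05). FPKM was computed from the counts and the deposited gene length. The nearest genes in pattern were those with the smallest root mean square difference in log2 CPM (prior count 2), each gene centred on its mean. Pathway genes were named where they had the largest called rise or fall of their list in the first 2 comparisons at a mean of at least 5 CPM, plus some named in any case. Some genes of these lists are counted but not reported here by name. Junb, Dusp9 and the other genes behind counts of 5 or fewer were named after their values were seen. The 9 members and the lists were chosen with earlier results of these data known.

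Groups and replicate numbers come from the titles. No libraries were copies, with a chi-square per gene of at least 14.1 within groups. Where the labels do not show separate rats, p-values measure only the spread between these samples. The level given for 3 counts covers counting error only. Alternatives were DESeq2 1.42.0, limma 3.58.1 (voom), other scalings and filters, a replicate block and leaving out each rat.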

Additional observations from a re-analysis of the deposited data

Results flagged for a closer look

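Each of the 9 genes was looked at in each group of 4 rats, 27 sets in all, and in 3 of them a single rat exceeded the critical value of Dixon's ratio, the gap to the nearest rat over the whole range, taken on log2 CPM (prior count 2). Chance gives about 1.35 such sets. Dusp4 was higher in Sham rat 5, at 9.73 CPM, than in the other Sham rats, with a ratio of 0.839 on log2 CPM and 0.858 on CPM. Dusp8 was higher in MI rat 5, at 11.9 CPM, than in the other MI rats, with a ratio of 0.921 on log2 CPM and 0.929 on CPM. Dusp16 was lower in MI rat 4, at 6.26 CPM, than in the other MI rats, with a ratio of 0.853 on log2 CPM and 0.793 on CPM, the latter below the critical value, so that 2 of the 27 sets passed on CPM, a scale tried after seeing the data. Without MI rat 4, Dusp16 had a log2 fold change of 2.71 in iCarP+/Light+ against MI rats and was still called higher.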

How the results depend on the processing

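The differences of Dusp1, Dusp5 and Dusp16 between iCarP+/Light+ and MI rats were called under all 9 alternatives and without each rat in turn. With the replicate block, Dusp2 was no longer called there, at 1.21 on the log2 scale (adjusted p = 0.0587), and the genes called over all numbered 1298 in place of 2051. Every other call of the 9 genes kept its side under the block. The replicate numbers did not pair the rats, since deviations of the 9 same-numbered pairs correlated at −0.150 to 0.0654 and 0 of 12 rats correlated best with its own number. With total counts alone, 3926 genes were called in that comparison. Total counts also turned the sign for Dusp4 (0.43), Dusp7 (0.33, called), Dusp10 (0.48, called) and Dusp16 (0.041) in MI against Sham rats, for Dusp4 (−0.082), Dusp7 (−0.26) and Dusp8 (−0.11) in iCarP+/Light+ against MI rats, and for Dusp7 (0.072) and Dusp10 (0.025) in iCarP+/Light+ against Sham rats. Dusp10 was then called lower in iCarP+/Light+ than in MI rats (−0.46). Relative to the median of all genes under that scaling, Dusp7 was −0.19 and Dusp10 −0.04 in MI against Sham rats. Dusp7 in iCarP+/Light+ against MI rats also turned negative with DESeq2 size factors (−0.039), DESeq2 (−0.039), no filter (−0.0020), 10 counts in every library (−0.048), no mitochondrial genes (−0.030), the block (−0.048) and the compared groups alone (−0.029). Dusp10 in MI against Sham rats turned positive with the compared groups alone (0.042). The cause was not tested.

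Leaving out 1 rat gave 1399 to 2504 genes called in iCarP+/Light+ against MI rats. It turned the sign of uncalled values of Dusp4 (−0.36 to 0.051 in MI against Sham, −0.0073 to 0.40 in iCarP+/Light+ against MI and −0.0039 to 0.14 in iCarP+/Light+ against Sham rats), Dusp7 (−0.064 to 0.046 in iCarP+/Light+ against MI rats), Dusp8 (−0.047 to 0.25 in iCarP+/Light+ against MI rats) and Dusp10 (−0.15 to 0.010 in MI against Sham rats). With 4 rats in each group, differences within the intervals of Dusp4, −0.36 to 0.75 in iCarP+/Light+ against MI rats, could not be told from 0.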

Other observations

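The genes whose pattern over the 12 rats lay nearest to each phosphatase were sought among 10713 protein-coding genes, by the root mean square difference of centred log2 CPM. For Dusp16 they were Kdm6b, a histone H3 lysine demethylase (0.295), and Kcnj2, an inward rectifier potassium channel (0.354). Kdm6b averaged 57.0 CPM for Sham, 56.4 for MI and 321 for iCarP+/Light+ rats. For Dusp1 they were Sema4d (0.251) and Spata13 (0.289), for Dusp2 Ndrg1 (0.210) and Fgd3 (0.244), and for Dusp5 Nedd9 (0.183) and Rara (0.192). Sema4d, a semaphorin, averaged 55.8, 26.2 and 149 CPM in the 3 groups. For Dusp6 they were Mthfd1l, an enzyme of mitochondrial folate metabolism (0.132), and Il6r, the interleukin 6 receptor (0.186). Dusp7 lay nearest to Men1 (0.0907) and Csnk1g2 (0.0974), Dusp10 to Srp68 (0.0968) and Mlst8 (0.114), Dusp8 to Grb10 (0.163) and Mid2 (0.164), and Dusp4 to Ralgps1 (0.215) and Nos3 (0.224). These likenesses are descriptions over 12 rats whose groups differ strongly, and many genes share such group differences.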
